A study of Mus musculus with 21 samples.

Results

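Long-term loss of PDS5B in a knockout line was set against its short-term, partial loss after siRNA in mouse embryonic stem cells (mESCs). The members were the 6 libraries, of 21 in the study, that the labels name as Pds5b-/- cells with siGLO (3 libraries) or wildtype (WT) cells with siPds5b (3 libraries). In Pds5b-/- siGLO mESCs both alleles of Pds5b were edited with CRISPR/Cas9, and the cells were transfected with siGLO, the non-targeting control of the study. In WT siPds5b mESCs both alleles were intact, and the cells received an siRNA against Pds5b. All cells were v6.5 mESCs, a male line, grown on gelatin in medium with serum, transfected at 50 nM and collected 48 h later. The 3 WT siGLO libraries served as the common reference, and 6 libraries of Pds5a-/- mESCs, with siGLO or siPds5b, were used to retest the knockdown. Reads of poly-A RNA were counted per gene.

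Both groups are limited as models of PDS5B loss. The methods state that the 3 replicates of a genotype came from a single CRISPR clone, here one with a homozygous 1-bp insertion, so an effect of the edit and a property of that clone cannot be told apart. The groups compared also differ in the siRNA they received, in the amount of Pds5b transcript left and in the time since loss, and these cannot be told apart either. The labels do not say whether replicates were separate cultures, so p-values measure the spread between these libraries.

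Cohesin is a ring of SMC1, SMC3 and RAD21 that embraces DNA, holds sister chromatids together and extrudes chromatin loops. PDS5A and PDS5B are related HEAT-repeat proteins that bind the ring at RAD21. They take part both in the release of cohesin by WAPL and in the acetylation of SMC3 that keeps cohesin on DNA, and at CTCF sites they limit loop growth. In mESCs, genes of the pluripotent state are among those whose transcription has been tied to cohesin.

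The knockout was made with 2 guides for SpCas9, and they are shown because they give the predicted cut sites in the coding sequence. Which site holds the 1-bp insertion of the line was not determined here. Capitals mark the bases of the NGG protospacer adjacent motif, and sequence is written 5′ to 3′ on the plus strand.
Pds5b sgRNA 1: tgataaagatgttcgtttacTGG
Pds5b sgRNA 2: cacgtctcccgataaactaaAG
Pds5b lies on chromosome 5 of mm10 from 150673739 to 150810690, on the plus strand. Both guides of 20 bases match coding sequence of exon 3 of 35 of the transcript Pds5b-201, which spans 150719823 to 150720026. The first matches chr5:150719930-150719949, with its cut after coding base 232, in codon 78 of 1446. The second matches chr5:150720005-150720024, with its cut after coding base 307, in codon 103. Its motif reaches past the end of the exon, so only 2 of the bases of the motif are shown. The predicted cuts are 75 bases apart, and both lie in the first part of the protein. The siRNA sequences were not analysed here.

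The files held counts for 23412 gene symbols, and 14963 had enough reads to be tested. Total counts were between 17434084 and 19628146 in WT siPds5b libraries, between 19187351 and 20445930 in Pds5b-/- siGLO libraries and between 17539639 and 23989198 in WT siGLO libraries. Values below are normalized read counts, scaled to a mean effective library size of 19816922, and are comparable between libraries but not between genes of different length. Markers of mESCs were high in all 9 libraries: Pou5f1 was between 21040 and 31320 and Sox2 between 7488 and 8453. Replicate 1 stood apart from replicates 2 and 3 in each of the 3 groups. The mean chi-square per gene was 16.08 and 26.72 between Pds5b-/- siGLO replicate 1 and the other two, against 7.1 between replicates 2 and 3, and no pair held identical counts. Among the genes on which replicate 1 differed, T (Brachyury), a mesoderm factor, had 74.76, 378.5 and 555.7 in WT siGLO replicates 1, 2 and 3, 63.17, 408.5 and 492.5 in WT siPds5b and 20.06, 74.77 and 68.92 in Pds5b-/- siGLO.

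Transcript of the target was low in both groups, and lower in the line. Pds5b had 2354, 2019 and 2285 normalized counts in the WT siGLO libraries. After siPds5b it had 686.7, 839.4 and 802.4, and in Pds5b-/- siGLO mESCs it had 277.6, 312.1 and 237.8. The 3 groups did not overlap. The means were 34.97% of WT siGLO after siPds5b and 12.43% in the line, so the line held 35.54% of what the siRNA left. The log2 fold change of Pds5b-/- siGLO over WT siPds5b was -1.49 (SE 0.12, adjusted p = 1.219e-08, edgeR's quasi-likelihood test with Benjamini-Hochberg adjustment over all tested genes). An exact two-sided permutation test of the 6 values gave p = 0.1, the smallest that 20 arrangements allow. Protein was not measured in these files.

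**Figure D1:**
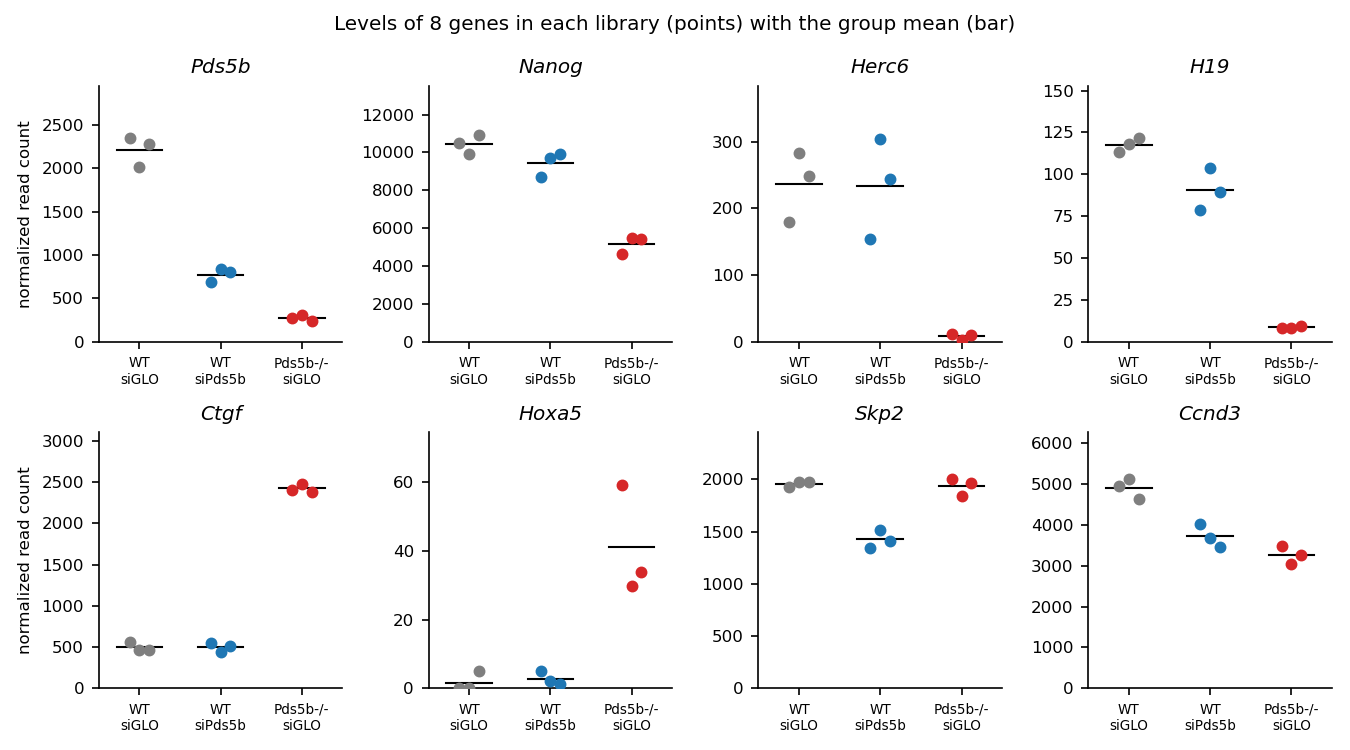
Normalized read counts (vertical axes, starting at 0) of 8 genes in the 3 libraries of WT siGLO, WT siPds5b and Pds5b-/- siGLO mESCs; points are libraries from replicate 1 to 3 and bars are means. Pds5b falls in 2 steps, in Nanog, Herc6, H19, Ctgf and Hoxa5 the Pds5b-/- siGLO libraries lie outside all 6 WT libraries, Skp2 is low only after siPds5b, and Ccnd3 is low in both.

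No other subunit of the ring passed the test between long-term and short-term loss. Of the 7 ring and HEAT subunits, Pds5b alone passed the test. Pds5a, the paralog, had 4917, 4674 and 5674 normalized counts after siPds5b and 6303, 5360 and 5474 in the line, and these libraries overlapped. Its log2 fold change was 0.17 (95% interval -0.02 to 0.35, adjusted p = 0.1561, edgeR's quasi-likelihood F test with Benjamini-Hochberg adjustment), and the exact permutation test gave p = 0.3. The log2 fold changes of Smc1a, Smc3, Rad21, Stag1 and Stag2 were between -0.10 and 0.19.

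Among 16 genes of cohesin loading, release and acetylation, 3 rose and 2 fell in the line against the knockdown, where 9.38% and 9.46% of all tested genes were higher or lower. Mau2 (0.29 on the log2 scale), a subunit of the cohesin loader, Ctcf (0.27), which encodes the factor that stops loops, and Chtf8 (0.28), a subunit of a clamp loader used in cohesion, rose, and all 3 lie on chromosome 8, described below. Esco2 (-0.35), an SMC3 acetyltransferase, and Pttg1 (-0.91), which encodes securin, fell. Pttg1 had 1559, 1663 and 1429 normalized counts after siPds5b and 623.8, 907.3 and 938.6 in the line, with no overlap. These counts rested on single libraries: without WT siPds5b replicate 2, Pds5b-/- siGLO replicate 1 or Pds5b-/- siGLO replicate 2 there was 1 in each direction, without WT siPds5b replicate 1 or 3 there were 2 and 1, and without Pds5b-/- siGLO replicate 3 there were 4 and 1.

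Of 13 meiotic cohesin and germline genes tested, 4 rose and none fell, a share of 30.8% called, where 18.8% of all tested genes were. Rec8, the meiotic kleisin that takes the place of RAD21, had 246.6, 228.8 and 206.6 normalized counts after siPds5b and 458.1, 443.7 and 449.4 in the line (log2 fold change 0.98, SE 0.17). Tdrd1, a piRNA pathway gene, had 47.89, 39.07 and 52.81 against 186.8, 167.5 and 163.1 (1.89, SE 0.17). In WT siGLO libraries Rec8 was between 167.9 and 225.1 and Tdrd1 between 37.17 and 47.26, so in both genes the line lay above all 6 WT libraries. Ddx4, a germ cell helicase, and Taf7l, a testis TFIID subunit, rose by 0.65 and 1.05. Leaving out single libraries gave 3 or 4 that rose.

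Over all genes, the line and the knockdown differed widely. Of the 14963 tested genes, 2820 (18.8%) were differentially expressed genes (DEGs, adjusted p under 0.01) between Pds5b-/- siGLO and WT siPds5b mESCs, 1404 of them higher (9.38%) and 1416 lower (9.46%) in the line. With a fold change of 1 or more in size on the log2 scale there were 681 (4.55%), 324 higher and 357 lower. Of the 2820, 2800 had no overlap between the 3 and the 3 libraries, and in 2619 the line lay outside all 6 WT libraries. Without overlap were 44.7% of all tested genes, and outside all 6 WT libraries were 34.4%. Leaving out 1 library lowered the count in every fit. It was 1881, 1685 and 2797 without Pds5b-/- siGLO replicate 1, 2 or 3, and 2026, 1909 and 2050 without WT siPds5b replicate 1, 2 or 3. Without replicate 1 of the 3 groups together, a choice made after seeing the data, 1422 were called.

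The same reference gave very different counts for each kind of loss. Against WT siGLO, which both comparisons share, 2725 genes (18.2%) were DEGs in the line, and 1 gene (0.00668%), Pds5b, was a DEG after siPds5b. Before adjustment, 6367 and 631 genes had a p under 0.05, and DESeq2 called 4 genes after siPds5b. With the replicate number as a block, 3 genes (0.02%) were called after siPds5b, namely Pds5b, Ufc1 and Skp2. Regardless of sign, the log2 fold changes over all tested genes had a median of 0.251 in the line and 0.08836 after siPds5b, beside a median standard error of 0.1294 and 0.1301. The difference between both effects is the direct contrast itself, since WT siGLO cancels from it.

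**Figure D2:**
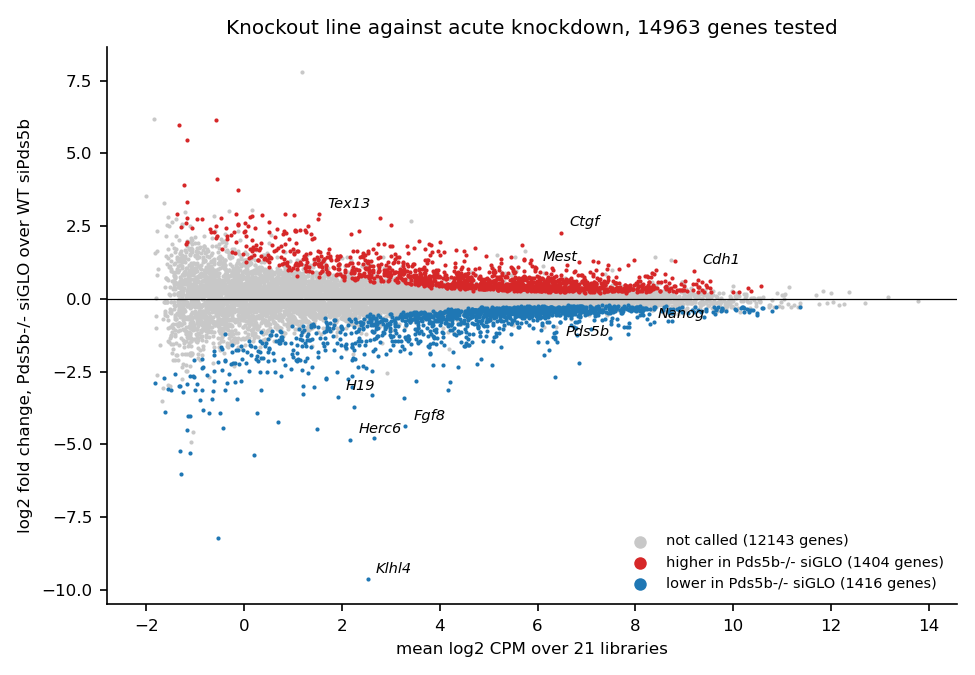
Each point is 1 of 14963 tested genes, with its mean log2 CPM over 21 libraries (horizontal axis) and its log2 fold change in Pds5b-/- siGLO over WT siPds5b mESCs (vertical axis). Red marks the 1404 genes that were higher and blue the 1416 that were lower at an adjusted p under 0.01; fitted values of genes that are near 0 in 1 group, such as Klhl4, depend on the prior count and are no measure of size.

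The 10 largest increases were sought among DEGs without overlap and with a log2 CPM that averaged 1 or more. They were of genes at low levels in WT cells, which a ranking by fold change favours. Tex13, a testis-expressed gene on the X chromosome, had 10.19, 18.98 and 16.07 normalized counts after siPds5b and 110.8, 122.6 and 107.7 in the line. Its log2 fold change was 2.92 (SE 0.26, adjusted p = 1.52e-08, edgeR's quasi-likelihood F test with Benjamini-Hochberg adjustment), and WT siGLO libraries lay between 8.269 and 17.19. Fermt1, which encodes the integrin activator kindlin-1, had 27.51, 13.39 and 24.11 against 116.1, 160.5 and 170.8 (2.77). Both were chosen for a large increase without overlap, so the lack of overlap is no result. Insm1, a neuroendocrine zinc finger factor, had 47.89, 34.6 and 51.66 against 319.8, 220.3 and 235.9 (2.53). Adamts19 (2.87), a secreted metalloprotease, Wnt7a (2.73), a Wnt ligand, Fam149a (2.52, on chromosome 8), Galnt14 (2.38), a glycosyltransferase of mucin-type glycans, Serpina3m (2.38), a serpin of a gene cluster with near copies, Tmprss2 (2.37), a membrane serine protease, and Cdx2 (2.33), a trophoblast and hindgut factor, completed the 10. Wnt7a and Tmprss2 kept their call without Pds5b-/- siGLO replicate 1 but lost it without any other one of the 6 libraries, and Galnt14 lost it without WT siPds5b replicate 1 or 2 or Pds5b-/- siGLO replicate 1, with log2 fold changes of 2.09 to 3.37 in these fits.

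The 10 largest decreases among such DEGs were of Klhl4, Herc6, Xaf1, Fgf8, Serpinb9, Arl14epl, Rgs17, H19, Ddx3y and Uty. Klhl4, a kelch-like gene on the X chromosome, had 292.4, 413 and 383.4 normalized counts after siPds5b and 386.7, 475.4 and 399.4 in WT siGLO. In the line it had 0, 0.997 and 0, from 0, 1 and 0 reads. Herc6, an interferon-inducible ubiquitin ligase gene, had 153.8, 304.7 and 244.5 after siPds5b and 11.61, 2.991 and 9.707 in the line (log2 fold change -4.84, SE 0.38). Both genes were near 0 in all 3 libraries of the line. After siPds5b their log2 fold changes over WT siGLO were -0.21 (95% interval -0.66 to 0.24) and -0.02 (-0.56 to 0.53). Xaf1, an interferon-inducible gene tied to apoptosis, had 136.5, 194.2 and 182.5 against 5.278, 11.96 and 21.35 (-3.70). Fgf8, a growth factor of the early embryo, had 157.9, 738.9 and 790.9 against 7.389, 35.89 and 36.89 (-4.37). Replicate 1 was the lowest for Fgf8 in each group, and the call of Fgf8 was lost in models of only the 2 or 3 groups compared. Serpinb9 (-3.39), a granzyme B inhibitor, Arl14epl (-3.29) and Rgs17 (-3.26), a regulator of G protein signalling, fell as well, and H19, Ddx3y and Uty are described below.

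Naive pluripotency genes keep mESCs in a state like the early epiblast. Of 17 tested, 12 fell in the line against the knockdown, 1 rose and 4 were not called, and the median log2 fold change was -0.66, where the median over all tested genes was 0.003. As a share, 76.5% of the list was called, where 18.8% of all tested genes were. After siPds5b none of the 17 was called against WT siGLO and the median was -0.05. Their calls held when single libraries were left out, with 11 or 12 that fell and 1 that rose. Genes of this and the next lists are named beyond the smallest p-values, and those further names were chosen after their values were seen.

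Nanog, a core factor of the naive state, had 8698, 9701 and 9932 normalized counts after siPds5b and 4632, 5468 and 5417 in the line. WT siGLO libraries had 10500, 9922 and 10940, so the line lay below all 6 WT libraries. Its log2 fold change was -0.87 (SE 0.13, adjusted p = 4.141e-05, edgeR's quasi-likelihood F test with Benjamini-Hochberg adjustment). Tbx3, a T-box factor of self-renewal, had 1596, 1600 and 1211 after siPds5b and 598.5, 401.8 and 402.8 in the line (-1.65). Tcl1, a coactivator of AKT, had 1135, 1365 and 1132 against 433.8, 455.6 and 447.5 (-1.44). Neither gene overlapped between these groups. Fgf4 (-0.95), the ligand that starts the exit from the naive state, Tfcp2l1 (-0.85), Nr0b1 (-0.79), Prdm14 (-0.77), Klf4 (-0.66) and Esrrb (-0.53), the latter 5 factors of the naive network, also fell, as did Dppa5a (-0.54) and Fbxo15 (-0.57), which mark mESCs. Zfp42, which encodes REX1, had 11430, 8950 and 9574 against 5835, 5602 and 5696 (-0.81), and it lies on chromosome 8, where most called genes were higher. Dppa3, a germline and oocyte factor also known as Stella, went the other way, with 192.6, 246.7 and 195.2 against 336.7, 535.4 and 563 (1.18). Klf2, Klf5, Nr5a2 and Tet2 were not called, with log2 fold changes from -0.39 to -0.12.

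Of 12 general pluripotency genes tested, 2 rose and 1 fell, a share of 25% called, where 18.8% of all tested genes were. Sox2 had 8453, 8336 and 7488 normalized counts after siPds5b and 8177, 8253 and 7775 in the line, with overlap and a log2 fold change of 0.00 (95% interval -0.15 to 0.14). Pou5f1, which encodes OCT4, had 31320, 29010 and 26690 against 21040, 23680 and 26320 and fell by 0.29 on the log2 scale. This call was lost with RLE scaling and in the fit without chromosome 8 genes. In the line over WT siGLO, no gene of this list was called lower. Utf1, a chromatin factor of mESCs, had 5815, 4117 and 4607 against 8550, 8169 and 8134 and rose (0.77). Sall4 rose by 0.35. This list had 1 gene that rose and none that fell without WT siPds5b replicate 1 or 2 or Pds5b-/- siGLO replicate 1 or 2, and 1 in each direction without WT siPds5b replicate 3.

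**Figure D3:**
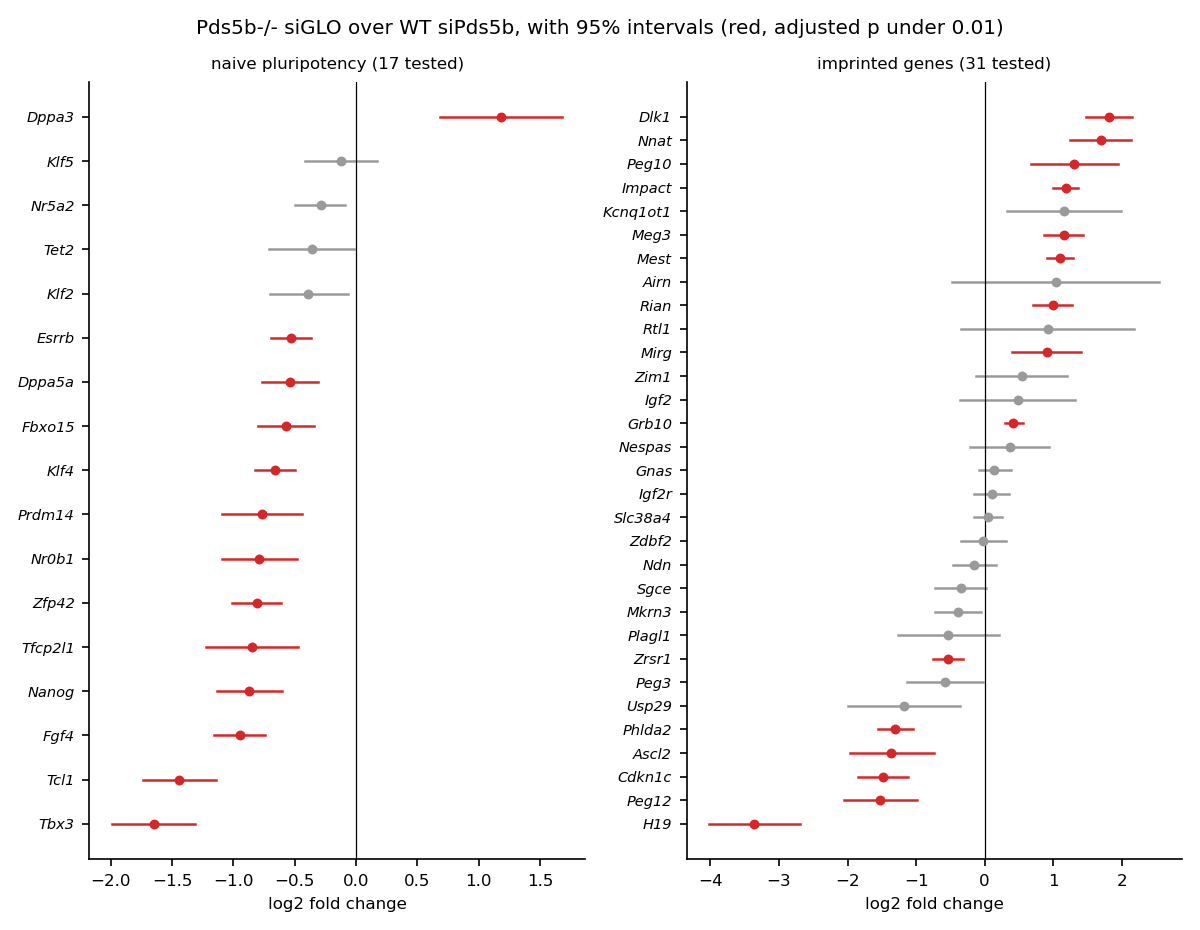
Log2 fold changes in Pds5b-/- siGLO over WT siPds5b mESCs (horizontal axes) for the tested members of 2 lists, with 95% intervals from the fit; red marks an adjusted p under 0.01. In the naive pluripotency panel 12 of 17 genes lie left of 0 in red, while the imprinted panel holds 9 red genes to the right and 6 to the left.

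Formative and primed genes, which mark the step after the naive state, did not move one way. Of 13 tested, 3 fell and 2 rose, a share of 38.5% called, where 18.8% of all tested genes were. Fgf5, the usual marker of the primed epiblast, had 77.43, 221 and 215.8 normalized counts after siPds5b and 13.72, 30.91 and 17.47 in the line (log2 fold change -3.03). The groups did not overlap, although replicate 1 was low in WT siPds5b. Zic2 (-0.51) and Fgf8, given above, fell too. Dnmt3b (0.61), a de novo DNA methyltransferase, and Sox4 (0.43) rose. Without WT siPds5b replicate 2 or Pds5b-/- siGLO replicate 2 the counts were 2 that fell and 1 that rose, and without Pds5b-/- siGLO replicate 1 they were 3 and 1.

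Some genes of later lineages were higher in the line, mostly at low levels. Of 11 neuroectoderm genes tested, 5 rose and none fell, a share of 45.5% called, where 18.8% of all tested genes were. Pax6, an eye and neural tube factor, had 57.06, 26.79 and 37.88 normalized counts after siPds5b and 204.8, 185.4 and 222.3 in the line (log2 fold change 2.32, SE 0.29). WT siGLO libraries were between 29.29 and 62.73, and the libraries of the line lay above all of them. Sox1, on chromosome 8, had 368.8, 277.9 and 306.5 against 1051, 743.7 and 636.8 (1.35), and Sox11 rose by 0.52. Zic1 had at most 2.232 after siPds5b and between 4.985 and 9.707 in the line. Nes, an intermediate filament gene of neural progenitors, was not called and its fitted value lay on the other side of 0 (-0.57, adjusted p = 0.02979, edgeR's quasi-likelihood F test with Benjamini-Hochberg adjustment). In the fits without WT siPds5b replicate 2 or Pds5b-/- siGLO replicate 2, 3 of the 11 rose.

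Of 14 endoderm genes, 21.4% were called, where 18.8% of all tested genes were. Among the 14, 3 rose and none fell, also without any single library. These 3 encode basement membrane chains: Col4a1 had 4068, 2794 and 2846 normalized counts after siPds5b and 10840, 7211 and 6764 in the line (1.35), Col4a2 rose by 1.30 and Lamb1 by 0.74. Col4a1 and Col4a2 are neighbours on chromosome 8, and in the fit without chromosome 8 genes 1 of 12 endoderm genes rose. The regulators Gata6 (0.07, 95% interval -0.88 to 1.02) and Sox17 (0.63, -0.48 to 1.73) were not called. Of 12 mesoderm and primitive streak genes Eomes (-0.86) fell, 8.33% of the list, with overlap between the libraries. This list had 3 that fell without WT siPds5b replicate 1, and without WT siPds5b replicate 2 or 3, or Pds5b-/- siGLO replicate 1 or 2, it had none. Of 10 trophoblast genes, Cdx2 and Gata3 (1.73) rose and Ascl2 (-1.36) fell, 30% of the list. Cdx2 had 2.038, 12.28 and 32.14 after siPds5b and 71.78, 80.76 and 76.68 in the line. Of the trophoblast list, 1 gene rose without WT siPds5b replicate 1 or 2 or Pds5b-/- siGLO replicate 2 or 3, and none fell without WT siPds5b replicate 2 or Pds5b-/- siGLO replicate 1. In bulk RNA, more cells of a type and more RNA per cell cannot be told apart.

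Hox genes of the A cluster were the only Hox genes called. Of 39 in the 4 clusters, 22 passed the filter on low counts, and 6 rose, all of them Hoxa genes at low levels. Hoxa5 had 5.094, 2.232 and 1.148 normalized counts after siPds5b, 0, 0 and 4.962 in WT siGLO, and 59.11, 29.91 and 33.97 in the line. Hoxa3 had 0, 1.116 and 0 after siPds5b and 39.06, 36.89 and 27.18 in the line. Hoxa2, Hoxa4 and Hoxa7 were at most 7.132 in any WT siPds5b library and between 5.824 and 27.45 in the line. In 5 of these 6 genes the line lay above all WT libraries, and Hoxa2 overlapped WT siGLO. Leaving out single libraries left 4 to 6 that rose. Because genes that passed the filter only through the line had to differ, no share of them is read as a result, and transcripts of the antisense RNAs in this cluster could not be told apart without knowledge of strand.

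Of 21 Polycomb genes, whose products hold Hox clusters silent, 3 rose and none fell, a share of 14.3% called, where 18.8% of all tested genes were. Kdm2b, which brings Polycomb complexes to CpG islands, had 2495, 2505 and 2808 normalized counts after siPds5b and 4307, 3711 and 3192 in the line (0.52). Cbx7 (0.38) and Pcgf3 (0.34) rose. Of 8 DNA methylation genes, Dnmt3b and Tet3 (0.47) rose and Uhrf1, the maintenance cofactor, fell by 0.33, 37.5% of the list. Dnmt3a had 5043, 3143 and 3450 against 9126, 6060 and 6296, with replicate 1 high in both groups, and was not called (0.88, adjusted p = 0.01365, edgeR's quasi-likelihood F test with Benjamini-Hochberg adjustment). Without Pds5b-/- siGLO replicate 1 or 2 none of the 8 rose, without any one of the WT siPds5b replicates 1 rose, and without Pds5b-/- siGLO replicate 3 there were 3 that rose.

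Imprinted genes, which are expressed from 1 parental allele, changed in both directions. Of 31 tested, 9 rose and 6 fell, and 48.4% of the list was called, where 18.8% of all genes were. In the Dlk1-Meg3 domain on chromosome 12, Meg3, a maternally expressed noncoding RNA, had 2518, 2364 and 2567 normalized counts after siPds5b and 4858, 6156 and 5509 in the line (log2 fold change 1.15, SE 0.14). Dlk1, the paternally expressed neighbour, had 90.68, 66.97 and 66.58 against 248.1, 279.2 and 266.9 (1.82). Genes known for expression from either parental allele thus rose in this domain, although alleles were not measured, and the noncoding Rian (0.99) and Mirg (0.91) rose with them. WT siGLO libraries were between 2223 and 2410 for Meg3 and between 52.94 and 79.38 for Dlk1. Mest, a paternally expressed hydrolase gene, had 1894, 1747 and 1942 against 4441, 3866 and 3688 (1.10). Impact (1.18), Nnat (1.69), Peg10 (1.31) and Grb10 (0.42) rose, and Impact had the smallest adjusted p of the list (1.193e-09, edgeR's quasi-likelihood test with Benjamini-Hochberg adjustment).

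On distal chromosome 7, the imprinted genes H19, Phlda2, Cdkn1c and Ascl2 fell, while Igf2 and Kcnq1ot1 were not called and had positive log2 fold changes. H19, a maternally expressed noncoding RNA, had 78.45, 103.8 and 89.54 normalized counts after siPds5b and 8.445, 7.976 and 9.707 in the line (log2 fold change -3.36, SE 0.32). Phlda2, a maternally expressed growth restrainer, had 1331, 952.1 and 1205 against 395.8, 482.5 and 531.9 (-1.31). Cdkn1c, a cell cycle inhibitor, had 824.2, 428.6 and 530.4 against 231.2, 189.4 and 217.4 (-1.49). In these 3 genes the line lay below all 6 WT libraries. Ascl2 (-1.36), of the same region, fell as well. Igf2, the reciprocal partner of H19, had 880.3, 837.1 and 765.7 against 827.6, 1328 and 1307, with overlap (0.48, 95% interval -0.36 to 1.32). Kcnq1ot1, the noncoding RNA of the Cdkn1c domain, had 103.9, 99.34 and 89.54 against 215.3, 192.4 and 244.6 and was not called (1.15, adjusted p = 0.03345, edgeR's quasi-likelihood F test with Benjamini-Hochberg adjustment), and it is antisense to Kcnq1. Peg12 (-1.52) and Zrsr1 (-0.54), of other domains, fell. After siPds5b no imprinted gene was called against WT siGLO, with log2 fold changes between -0.47 and 0.67. Leaving out single libraries left 7 to 9 that rose and 5 or 6 that fell.

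Interferon and RNA sensing genes detect foreign RNA and answer interferon. Of 21 tested, 6 fell in the line, 1 rose and 14 were not called, with a median log2 fold change of -0.80. As a share, 33.3% of the list was called, where 18.8% of all tested genes were. Ddx58, which encodes the RNA sensor RIG-I, had 1095, 925.3 and 1159 normalized counts after siPds5b and 643.9, 581.2 and 585.3 in the line (-0.81). Ifih1, which encodes the sensor MDA5, had 14.26, 34.6 and 45.92 against 9.5, 4.985 and 7.765 (-2.07). Oas1a, an RNA-activated synthetase, had 110, 110.5 and 105.6 against 24.28, 22.93 and 29.12 (-2.09). No library overlapped in these genes, and Oas1g (-1.42), Oasl2 (-1.17) and Herc6 fell too. Oas1a and Oas1g belong to a cluster of near copies, so reads may be split between them. Ifitm3, an antiviral membrane protein gene that mESCs express without interferon, had 2633, 2580 and 2468 against 4186, 5371 and 6221 and rose (1.04). Stat2, a signal carrier of the interferon response, was not called (0.03, 95% interval -0.37 to 0.42). Leaving out WT siPds5b replicate 3 gave 4 that fell, and the other fits gave 5 to 7. Both groups were transfected, and small RNA machinery differed by 3 of 12 genes that rose, Drosha (0.38), Tnrc6b (0.42) and Tnrc6a (0.30), a count that became 0 without WT siPds5b replicate 2 or Pds5b-/- siGLO replicate 1, 1 without WT siPds5b replicate 1 or 3 or Pds5b-/- siGLO replicate 2, and 6 without Pds5b-/- siGLO replicate 3. For small RNA machinery the share called was 25%.

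Two-cell-like genes, which a small share of mESCs switches on in bursts, were lower in the line for 5 of 16 tested. As a share, 31.2% of the list was called, where 18.8% of all tested genes were. Zscan4c had 847.7, 505.6 and 616.5 normalized counts after siPds5b and 387.4, 243.3 and 264 in the line (-1.14), and Zscan4d (-1.21), Zscan4f (-1.12), Tcstv1 (-1.82) and Tdpoz3 (-2.44) fell. All 5 belong to families with near-identical copies, so the reads of single members are uncertain. All 16 had a log2 fold change under 0, from -2.44 to -0.45, but without WT siPds5b replicate 1 or 3, or Pds5b-/- siGLO replicate 2 or 3, only 2 were called.

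Of 18 epithelial and mesenchymal adhesion genes tested, 5 rose, 2 fell and 11 were not called, and 2 of the 5 lie on chromosome 8, whose genes were higher as a whole. The share called was 38.9%, where 18.8% of all tested genes were. Cdh1, which encodes E-cadherin and lies on chromosome 8, had 8396, 7780 and 7326 normalized counts after siPds5b and 16210, 15790 and 14100 in the line (log2 fold change 0.97, SE 0.08). Epcam, a surface marker of mESCs on chromosome 17, had 4466, 4445 and 4044 against 5743, 6040 and 6368 (0.49). The tight junction genes Cldn6 (0.97) and Cldn7 (1.22) and the integrin gene Itgb1 (0.50, on chromosome 8) also rose. Vim, which encodes vimentin, had 5529, 6647 and 7516 against 2845, 2305 and 2678 (-1.33), and Zeb1, a repressor of E-cadherin, had 387.2, 387.3 and 423.6 against 267.1, 144.6 and 193.2 (-0.99). None of these groups overlapped, and the decreases of Vim and Zeb1 held without any single library, while without Pds5b-/- siGLO replicate 2 there were 3 that rose.

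Among targets of the factor SRF, 4 of 15 rose and 2 fell, a share of 40% called, where 18.8% of all tested genes were. Ctgf, a secreted matrix protein gene on chromosome 10 that also answers YAP, had 552.2, 438.7 and 508.5 normalized counts after siPds5b, 562, 470.9 and 459.8 in WT siGLO, and 2411, 2484 and 2378 in the line. Its log2 fold change was 2.28 (SE 0.10, adjusted p = 2.215e-13, edgeR's quasi-likelihood F test with Benjamini-Hochberg adjustment), the smallest of this contrast among the genes named here. Cnn1 (1.02), a calponin gene, Myl9 (0.71) and Srf itself (0.30) rose. Acta2, smooth muscle actin, had 1641, 1373 and 1731 against 281.8, 435.7 and 533.9 and fell (-1.92), and Actg2 had between 16.07 and 20.09 against 2.111, 0 and 0.9707. In the fits without WT siPds5b replicate 1 or 3, or Pds5b-/- siGLO replicate 1 or 2, 1 of the 15 fell.

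Acta2 is also in the list of 12 markers of fibroblasts and feeders, cells that can be carried along in mESC cultures. Of these genes, 8 passed the filter, 5 fell in the line (62.5%, where 18.8% of all tested genes were called) and 3 were not called. Col1a1, the main fibroblast collagen, had 729.5, 736.7 and 1008 normalized counts after siPds5b, 441.7, 504.7 and 662.4 in WT siGLO and 141.4, 152.5 and 189.3 in the line (-2.35). Col1a2 had 733.6, 769.1 and 935.6 against 55.95, 104.7 and 116.5 (-3.13), Postn fell by 4.45 on the log2 scale and Thy1 by 0.83. The summed level of the list was between 3335 and 4107 after siPds5b, between 2464 and 3403 in WT siGLO and between 863.5 and 1246 in the line. The markers Dcn, Lum, Fap and S100a4 had too few reads to be tested in any group. Vim and Acta2 moved with these markers, whose part in the results above was not tested. Without single libraries 1 to 3 of the 8 fell, with 1 without Pds5b-/- siGLO replicate 2, 2 without WT siPds5b replicate 1 or 3 or Pds5b-/- siGLO replicate 1 or 3, and 3 without WT siPds5b replicate 2.

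Of 22 ligands and feedback genes of the Fgf, Nodal, Wnt and BMP pathways, 4 fell and 1 rose. These made up 22.7% of the list, where 18.8% of all tested genes were called. Inhbb, which encodes an activin subunit, had 1260, 698.7 and 770.3 normalized counts after siPds5b and 456, 376.9 and 407.7 in the line (-1.14). Bmp4 (-0.86), Fgf4 and Fgf8 also fell. Spry1, a feedback inhibitor of FGF signalling, had 301.6, 222.1 and 228.4 against 423.3, 465.6 and 425.2 and rose (0.80). The other 17 were not called, single libraries left out gave 3 or 4 that fell, and 2 rose without WT siPds5b replicate 3 or Pds5b-/- siGLO replicate 1.

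Cell cycle genes moved in both directions. Of 23 tested, 4 rose and 3 fell, a share of 30.4% called, where 18.8% of all tested genes were. Mki67, the proliferation marker, rose by 0.54, Skp2 by 0.44, Cdc20 by 0.25 and Plk1 by 0.22 against the knockdown, while Ccnd1 (-0.71), Cdk4 (-0.35) and Cdk1 (-0.34) fell. Skp2 in the line was at 98.9% of its mean in WT siGLO, and after siPds5b at 72.8%. Ccnd1, which encodes cyclin D1, had 2944, 3303 and 3336 normalized counts after siPds5b and 1941, 1974 and 1930 in the line. Without WT siPds5b replicate 2 or 3, or Pds5b-/- siGLO replicate 2, 2 rose, and without Pds5b-/- siGLO replicate 1, 1 fell. Of 20 p53 targets, Mdm2 (0.31) rose and Pmaip1 (-0.90) and Sesn1 (-0.61) fell, and none rose without WT siPds5b replicate 1 or 2 or Pds5b-/- siGLO replicate 1 or 2. Of 11 immediate early genes, Egr1 (0.89) and Junb (1.08, on chromosome 8) rose, and without WT siPds5b replicate 2 or Pds5b-/- siGLO replicate 2 only 1 did. Of 15 genes of amino acid and unfolded protein stress, Asns (-0.49) fell, and of 17 glycolysis and hypoxia genes, Pfkp (-0.76) and Pgk1 (-0.47) fell. Without Pds5b-/- siGLO replicate 1 or 2 or WT siPds5b replicate 2 or 3, 1 of these 17 fell. Of 22 genes of sterol and fatty acid synthesis 4 rose, among them Acaca (0.72) and Fasn (0.64), which make fatty acids, and 2 fell. Only 2 rose without WT siPds5b replicate 1 or 2 or Pds5b-/- siGLO replicate 1 or 2, while none fell without Pds5b-/- siGLO replicate 1, and 1 fell without WT siPds5b replicate 2 or 3 or Pds5b-/- siGLO replicate 2. As shares, 15% of the p53 targets and 18.2% of the immediate early genes were called. For the stress list it was 6.67%, for glycolysis and hypoxia 11.8% and for sterol and fatty acid synthesis 27.3%.

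Cytosolic ribosomal protein genes were slightly lower in the line, and their calls turned on single libraries. Of 30 tested, 14 fell and none rose (46.7% called, where 18.8% of all tested genes were), with a median log2 fold change of -0.31. Rpl32, which encodes a subunit of the large ribosomal subunit, had 16120, 15460 and 14960 normalized counts after siPds5b, 14120, 14690 and 12760 in WT siGLO and 10670, 10820 and 13450 in the line. The line did not overlap WT siPds5b in this gene and did overlap WT siGLO. None of the 30 was called between the line and WT siGLO. The count was 0 without WT siPds5b replicate 1 or Pds5b-/- siGLO replicate 1 or 2, 2 without WT siPds5b replicate 2 or 3, and 23 without Pds5b-/- siGLO replicate 3. Genes of the protocadherin beta cluster, where cohesin sets promoter choice in neurons, were near the limit of detection: 3 of 22 were tested and none was called.

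Genes of chromosome 8 were higher in the line as a whole. Of 779 tested genes there, 284 rose and 10 fell, and 37.7% were called, where the other chromosomes apart from Y had between 15.3% and 21.6%. The median log2 fold change of chromosome 8 was 0.33 in Pds5b-/- siGLO over WT siPds5b, and 83.44% of its genes lay above 0. The medians of the other chromosomes apart from Y were between -0.06 and 0.047. As a median difference from the WT siGLO mean, the 3 libraries of the line had 0.296, 0.299 and 0.308 on chromosome 8 and the WT siPds5b libraries 0.005, -0.011 and -0.032. Chromosome 8 held 6.311% to 6.382% of all counts in the line, 5.05% to 5.221% after siPds5b and 5.141% to 5.198% in WT siGLO. The libraries of the line and of WT did not overlap in either measure.

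The difference ran along the whole chromosome. In windows of about 80 neighbouring genes, 11 of 175 had a median of at least 0.2 in size, and these were all 9 windows of chromosome 8 (0.203 to 0.445) and the last 2 of chromosome 7. The window of chromosome 7 from 127776670 to 140787852 had a median of 0.27 with 26 genes higher and 3 lower, and the one from 140807449 to 145284011 had 0.386 with 33 higher and 26 lower. As a median difference from the WT siGLO mean, the libraries of the line were spread in the latter window, with 0.211, 0.455 and 0.614 in replicates 1, 2 and 3. In the former they had 0.307, 0.257 and 0.247. The other 164 windows were between -0.195 and 0.152. Among them, the window of chromosome 12 from 108370957 to 119469987, which holds the Dlk1-Meg3 domain, had 0.148 with 20 genes higher and 4 lower. H19, Phlda2, Cdkn1c, Ascl2, Fgf4 and Ccnd1 lie in these windows of chromosome 7 and were lower, against the direction of the medians, while Utf1, Mki67 and Ifitm3, also there, were higher. Copy number was not measured in these files, so its part was not tested. Of the 14184 tested genes not placed on chromosome 8, 2526 (17.8%) were DEGs in the fit of all genes.

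**Figure D4:**
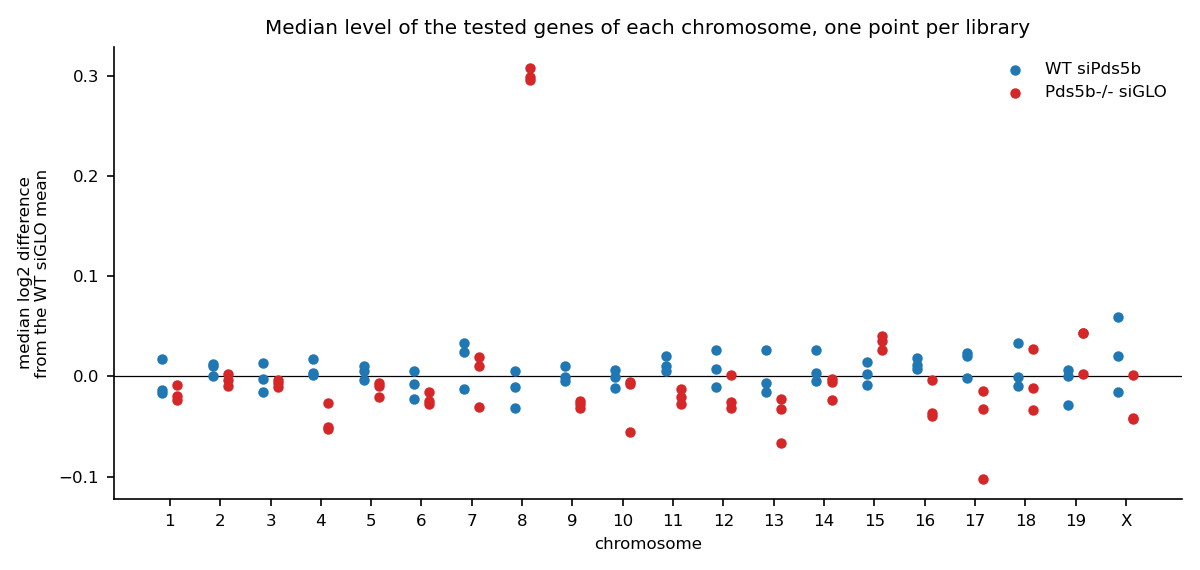
Median log2 difference from the WT siGLO mean over the tested genes of each chromosome (vertical axis), for the 3 WT siPds5b and the 3 Pds5b-/- siGLO libraries (points); chromosome Y is left out. The 3 libraries of the line lie between 0.296 and 0.308 on chromosome 8, while those of WT siPds5b lie between -0.032 and 0.005.

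Of 6 tested genes of the Y chromosome, 4 fell in the line and 2 were not called, a share of 66.7% called, where 18.8% of all tested genes were. Ddx3y, an RNA helicase gene, had 112.1, 150.7 and 188.3 normalized counts after siPds5b and 6.334, 2.991 and 6.795 in the line (log2 fold change -4.77). Uty, a histone demethylase homolog, had 43.81, 48 and 50.51 against 2.111, 1.994 and 1.941 (-4.47). Kdm5d had 20.38, 55.81 and 36.73 against 0, 0 and 0, and Eif2s3y had 95.77, 111.6 and 99.87 against 36.95, 26.92 and 22.33 (-1.84). These 4 fell also without any single library, and each has a close homolog on the X chromosome whose reads may be counted with it. The other two, Uba1y and Zfy1, had positive log2 fold changes (0.43 and 1.72) that did not pass the test.

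The few genes that led the response to siPds5b were then followed into the line. The 10 genes of smallest p in WT siPds5b over WT siGLO were Pds5b and 9 others, and since they were chosen in that contrast, their values there are a description. These 9 were retested in Pds5a-/- mESCs, where siPds5b was compared with siGLO in libraries that share none with the first contrast. Of the 9, 6 passed with the same sign, where 7.59% of all tested genes passed in that comparison, and 7 had the same sign. With the replicate number as a block, 6 passed, where 10.5% of all genes did. The count was between 4 and 8 when single libraries were left out, 4 in a model of only the 4 groups involved and 7 with DESeq2.

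Ufc1, which encodes the conjugating enzyme of the ubiquitin-like protein UFM1, was low only with the siRNA. It had 1066, 1158 and 1069 normalized counts in WT siGLO, 803.9, 773.5 and 715.2 after siPds5b and 1069, 1114 and 1274 in the line. In Pds5a-/- mESCs it had 1204, 1291 and 1283 with siGLO and 849.7, 979.6 and 892 with siPds5b (log2 fold change -0.47, adjusted p = 0.0002736, edgeR's quasi-likelihood test with Benjamini-Hochberg adjustment). The line over WT siGLO gave 0.07 (adjusted p = 0.5298 by the same test) and the line over WT siPds5b gave 0.59 (adjusted p = 1.015e-05). Skp2, a ubiquitin ligase subunit that targets cell cycle inhibitors, had the same pattern, with 1926, 1972 and 1979 in WT siGLO, 1347, 1519 and 1412 after siPds5b and 2007, 1844 and 1962 in the line. In Pds5a-/- mESCs siPds5b took it from 1988, 1712 and 1603 to 1177, 1004 and 998.7 (-0.74). Both genes were thus low in each genotype given siPds5b, and the line with less Pds5b transcript overlapped WT siGLO. Whether the siRNA acts on these transcripts directly was not tested, since its sequence was not analysed here.

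Ccnd3, Nr3c1, Cnga3 and Mpzl2 had 1 sign in all 3 comparisons, and passed the test both in Pds5a-/- mESCs and in the line. Ccnd3, which encodes cyclin D3, had 4946, 5112 and 4643 normalized counts in WT siGLO, 4031, 3682 and 3446 after siPds5b and 3471, 3040 and 3251 in the line. The WT siPds5b libraries and those of the line overlapped (-0.19, adjusted p = 0.03678, edgeR's quasi-likelihood F test with Benjamini-Hochberg adjustment), and the line over WT siGLO gave -0.59. In Pds5a-/- mESCs siPds5b gave -1.0, from 3887, 3995 and 3896 to 1897, 1893 and 2090. This effect differed from that in WT mESCs (adjusted p = 0.0007394, edgeR's quasi-likelihood F test with Benjamini-Hochberg adjustment), a difference that 1.48% of all tested genes passed. Nr3c1, the glucocorticoid receptor gene, had 440.8, 398.8 and 429.2 in WT siGLO, 532.9, 586 and 576.3 after siPds5b and 658.7, 640.1 and 669.8 in the line, and siPds5b in Pds5a-/- mESCs gave 0.76. The 3 groups of WT and the line did not overlap in this gene. Cnga3, a cyclic nucleotide gated channel gene, was higher by 0.75 after siPds5b in WT, 0.60 after siPds5b in Pds5a-/- and 0.62 in the line. Mpzl2, an adhesion gene, gave -0.33, -0.35 and -0.28. The comparisons of WT with siPds5b and with the line share the WT siGLO libraries.

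The other 3 genes did not pass in Pds5a-/- mESCs. Dmrtb1, a germ cell factor, had 39.53, 48.44 and 38.87 normalized counts in WT siGLO, 97.81, 74.79 and 79.21 after siPds5b and 124.6, 126.6 and 149.5 in the line. It was higher in the line than after siPds5b (log2 fold change 0.67, adjusted p = 0.008062, edgeR's quasi-likelihood F test with Benjamini-Hochberg adjustment), and siPds5b in Pds5a-/- gave 0.48 (adjusted p = 0.09285 by the same test). The call in the line over siPds5b held only without WT siPds5b replicate 1 among the fits that left out 1 of the 6 libraries. Hsd11b2, an enzyme gene that inactivates glucocorticoids, had 2.038, 4.465 and 8.036 after siPds5b against 15.47, 23.66 and 26.46 in WT siGLO, and siPds5b in Pds5a-/- gave 0.35. Ptp4a3, a phosphatase gene, gave 0.40 in WT and -0.03 in Pds5a-/-, and it was lower in the line than after siPds5b (-0.32), a call lost without WT siPds5b replicate 1 or 2 or Pds5b-/- siGLO replicate 1 or 2.

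**Figure D5:**
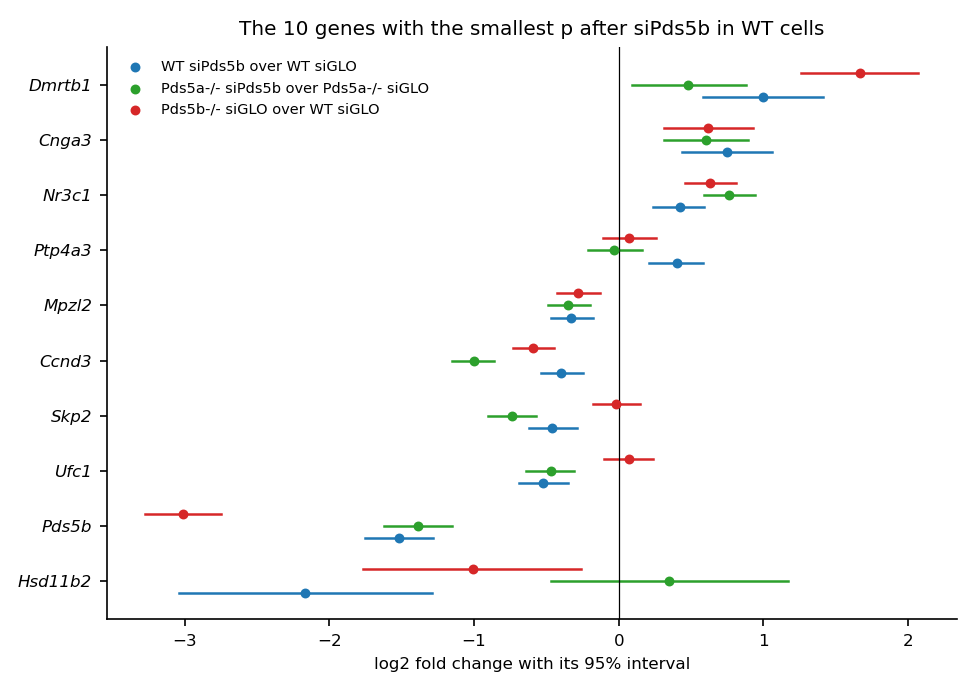
Log2 fold changes with 95% intervals (horizontal axis) of the 10 genes with the smallest p after siPds5b in WT mESCs, for siPds5b in WT (blue), siPds5b in Pds5a-/- (green) and the Pds5b-/- line (red, over WT siGLO). Blue values chose the genes; Ufc1 and Skp2 lie left of 0 in blue and green and near 0 in red, while Ccnd3, Nr3c1, Cnga3 and Mpzl2 lie on 1 side in all 3.

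Genes with 3 separate levels were few. In 151 genes (1.01%), Pds5b among them, all libraries of the line lay below all of WT siPds5b, and these below all of WT siGLO, and 119 genes (0.795%) had the reverse order. Orders in which siPds5b lay on the far side of WT siGLO from the line were found in 181 genes (1.21%) and 145 genes (0.969%). Orders with the line between siPds5b and WT siGLO were found in 2 genes (0.0134%), Thyn1 and Zfp93, and in 3 genes (0.02%), 1110020A21Rik, Hsd11b2 and Kcnh3, which are named because they are few. Klf4, which had 3472, 3358 and 3269 normalized counts in WT siGLO, 3065, 2959 and 2649 after siPds5b and 2019, 1804 and 1669 in the line, had the order of Pds5b. So had Esrrb, Tbx3, H19, Oas1a and Fry, picked after their values were seen. Dppa5a, Peg12, Col1a1, Col1a2 and Postn, picked in the same way, were among the 181 genes. In these the line lay below WT siGLO and siPds5b above it.

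Genes beside Pds5b did not pass the test. Of the tested genes within 1 Mb on chromosome 5, the nearest to the threshold was Fry, a gene of cell morphology, with 431.4, 420.2 and 400.2 normalized counts in WT siGLO, 311.8, 340.4 and 319.1 after siPds5b and 252.3, 256.2 and 241.7 in the line. These groups did not overlap, and its log2 fold change in the line over siPds5b was -0.37 (95% interval -0.63 to -0.12, adjusted p = 0.0234, edgeR's quasi-likelihood F test with Benjamini-Hochberg adjustment). In Pds5a-/- mESCs siPds5b gave 0.57 for Fry, the other direction. Brca2, Rfc3, Stard13, N4bp2l1, N4bp2l2, B3galtl and 1700028E10Rik gave log2 fold changes between -0.80 and 0.74 and none was called.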

How the data were processed

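RNA-seq libraries were assigned to groups from their labels. The authors aligned paired-end poly-A reads to mm10 with STAR and deposited raw counts per gene symbol, without normalization, and they used DESeq2 for their own tests. The counting program, annotation and strand setting are not given in the sources used here, so overlapping, antisense and near-identical genes may share reads.

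The counts as deposited entered edgeR 4.0.16 (R 4.3.3), whose filterByExpr set the genes to test over the 7 conditions. Library sizes were scaled by TMM, and 1 robust quasi-likelihood model with a mean for each condition was fitted to 21 libraries (14 residual degrees of freedom). Adjustment was by Benjamini and Hochberg over all 14963 tested genes, with a threshold of 0.01, and intervals are at 95%. Normalized counts are counts divided by TMM library sizes. Single values were compared with exact permutation tests. The direct contrast equals the difference of both effects against WT siGLO. Contrasts with WT siGLO share its libraries, so no overlap or correlation between them was computed.

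Named genes were the cohesin ring and HEAT subunits, the 10 largest increases and decreases among DEGs without overlap whose log2 CPM averaged 1 or more, the 10 smallest p-values after siPds5b, up to 4 members per gene list, the study's lineage markers and the tested genes within 1 Mb of Pds5b. The members and lists were chosen with earlier results of these data known. Further members of a list are named where they passed the test, chosen after their values were seen, and a few members counted in the lists are not reported here.

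Positions came from a GENCODE annotation of mm10, with older symbols from RefSeq, for 99.29% of tested genes. Guides were searched in the exon sequences of Pds5b transcripts. Alternatives were DESeq2 1.42.0, RLE or library size scaling, other filters, models of fewer groups, no chromosome 8 genes, other thresholds, the replicate number as a block and leaving out each library. Over 11728 genes, deviations of libraries with the same number correlated by 0.35 to 0.532 between WT siPds5b and WT siGLO. Between the siRNAs in Pds5a-/- the values were 0.344 to 0.697, which pairs the libraries in both comparisons. Between Pds5b-/- siGLO and WT siGLO they were 0.102 to 0.315. There replicate 3 of the line gave 0.102 with its own number and 0.166 with another, so that replicate is not paired. In the direct contrast replicates 1 and 2 gave 0.173 and 0.217, above their highest values with another number (0.048 and -0.024). Replicate 3 gave -0.04 with its own number and up to 0.124 with another, so this contrast was not treated as paired. The fit was also run on simulated counts that held no shift shared by libraries of the same number, and no result here rests on that run. Figures were drawn with matplotlib in Python.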

Additional observations from a re-analysis of the deposited data

Results flagged for a closer look

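The effect of siPds5b on Ccnd3 differed between genotypes. The log2 fold change was -0.40 in WT and -1.0 in Pds5a-/- mESCs, and the difference of -0.60 passed the test (adjusted p = 0.0007394 for the interaction, edgeR's quasi-likelihood test with Benjamini-Hochberg adjustment). All 3 libraries were lower after siPds5b in each genotype, and 222 of all tested genes (1.48%) passed this test.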

How the results depend on the processing

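Between Pds5b-/- siGLO and WT siPds5b, fits without 1 replicate called 1422 to 2797 genes, the lowest without replicate 1 of 3 groups together, an alternative added after seeing the data, and 1685 without Pds5b-/- siGLO replicate 2. An adjusted p under 0.1 called 6003 genes and a minimum of 1 for the size of the log2 fold change 681. Against WT siGLO, the line gave 1458 to 2611 in the fits without 1 replicate (1704 without Pds5b-/- siGLO replicate 2), 6043 and 731. After siPds5b, 4 genes were called by DESeq2, 2 without a filter, 2 with only both groups, 2 without chromosome 8 genes, 7 at an adjusted p under 0.1, 3 with the replicate block, and 1 in each fit without 1 replicate. Of the genes retested in Pds5a-/- mESCs, 1 passed with that minimum size and 4 to 8 passed without single replicates. The direct contrast was not treated as paired, and the block gave 3406 genes there. The other counts stayed within 1.5 times. In the direct contrast they ran from 2465, in a new fit without chromosome 8 genes, to 3315 with DESeq2. For the line over WT siGLO they ran from 2365, also in the fit without chromosome 8 genes, to 3316 with the replicate block.

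Pds5b kept its call in all fits, with log2 fold changes from -1.59 to -1.37 without single replicates and a largest adjusted p of 8.051e-07 (edgeR or DESeq2). The chromosome 8 median was 0.324 to 0.352 without single replicates, with 0.352 without WT siPds5b replicate 1. Rad21, not called, was between -0.07 and 0.01 on the log2 scale without single replicates and changed sign without Pds5b-/- siGLO replicate 3. Of the other values of single named genes, 1971 kept direction and side of the threshold, 211 lost their call and 30 gained one. Scaling by TMM, RLE or library size moved the median of all genes to between 0.003 and 0.014. The causes were not tested. Low counts limit the Hox and Zic1 values most.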
